A study of Homo sapiens with 6 samples.

Results

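The 10 genes described here mark the stem cells at the base of the intestinal crypt or act in them: OLFM4, LGR5, ASCL2, SMOC2, PROM1, LRIG1, CD44, SOX9, MYC and MSI1. They were chosen by name, and all 10 were matched by symbol to 1 row each of the 58735 genes in the table. RNA sequencing had been run on T84, a long-established cell line from a human colorectal carcinoma. There were 3 libraries labelled shACSL4, whose genotype label names a knockdown of ACSL4, and 3 libraries labelled shControl, whose genotype label is WT. Both groups were grown in DMEM/F12 medium with fetal bovine serum and antibiotics. All 6 libraries come from 1 cell line, and the sources used here give neither the hairpins nor the promoter driving them. Nothing in the labels ties the 3 libraries of a group to separate cultures. The p-values therefore speak only of the spread among these libraries, which could be technical.

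Total counts were 14740383 to 17189496 in the shACSL4 libraries and 15119283 to 17620630 in the shControl libraries. ACSL4, which encodes an acyl-CoA synthetase for long polyunsaturated fatty acids, stood at 10.1 ± 0.977 CPM (counts scaled to the TMM-adjusted size of the library) in shACSL4 and 73.1 ± 1.98 CPM in shControl cells (SD, n = 3 each). All 15 genes of a colonic epithelial identity list passed the filter on low counts, and together they held 9498 to 10940 CPM in shACSL4 and 8464 to 9787 CPM in shControl libraries. Of those 15, 8 rose and 3 fell (5 rose without shControl replicate 1). Over all genes tested, 24.0% rose and 23.1% fell. At 3 counts, a level of 0.171 to 0.201 CPM, a gene is close to the limit of detection. That limit covers counting error only, since reads amplified by PCR and carrying no molecular identifiers do not stand for independent molecules.

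In the normal gut, crypt-base stem cells are kept by Wnt and Notch signals, while BMP signals rise toward the crypt mouth and accompany differentiation. Wnt ligands act through Frizzled and LRP receptors, R-spondins bound by LGR receptors strengthen that signal, and CD44, SOX9, MYC, LGR5 and ASCL2 are among the genes that Wnt signalling activates. Most colorectal cancers carry a constantly active Wnt pathway and often express parts of the crypt-base programme.

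The stem cell genes did not move together when ACSL4 was knocked down. OLFM4, SMOC2 and MSI1 fell strongly in shACSL4 cells, to between 15.8% and 23.7% of the shControl level, LRIG1 and SOX9 fell by less, and ASCL2 rose 1.90-fold. LGR5, CD44 and MYC stayed near their shControl levels and did not pass the test, and PROM1, with 1 to 8 counts a library, was too low to be tested. Of the 9 genes that passed the filter on low counts, 5 fell and 1 rose at an adjusted p under 0.05 in edgeR's quasi-likelihood test with Benjamini-Hochberg adjustment over all 15694 genes tested. MSI1, among the 5, passed that filter only through its shControl libraries. Over all genes 47.2% were called (23.1% lower and 24.0% higher), so calls were common in this comparison. The median log2 fold change (shACSL4 over shControl) of the 9 genes was -0.45, and that of all genes tested was 0.01. Scaling by library size alone put the median over all genes at 0.13, and 65.55% of all calls were then higher in shACSL4 cells, where TMM scaling gave 50.93%. The same 6 stem cell genes had groups that did not overlap in CPM, where 55.1% of all genes did not. In bulk RNA, fewer cells of a type and less RNA per cell cannot be told apart.

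**Figure D1:**
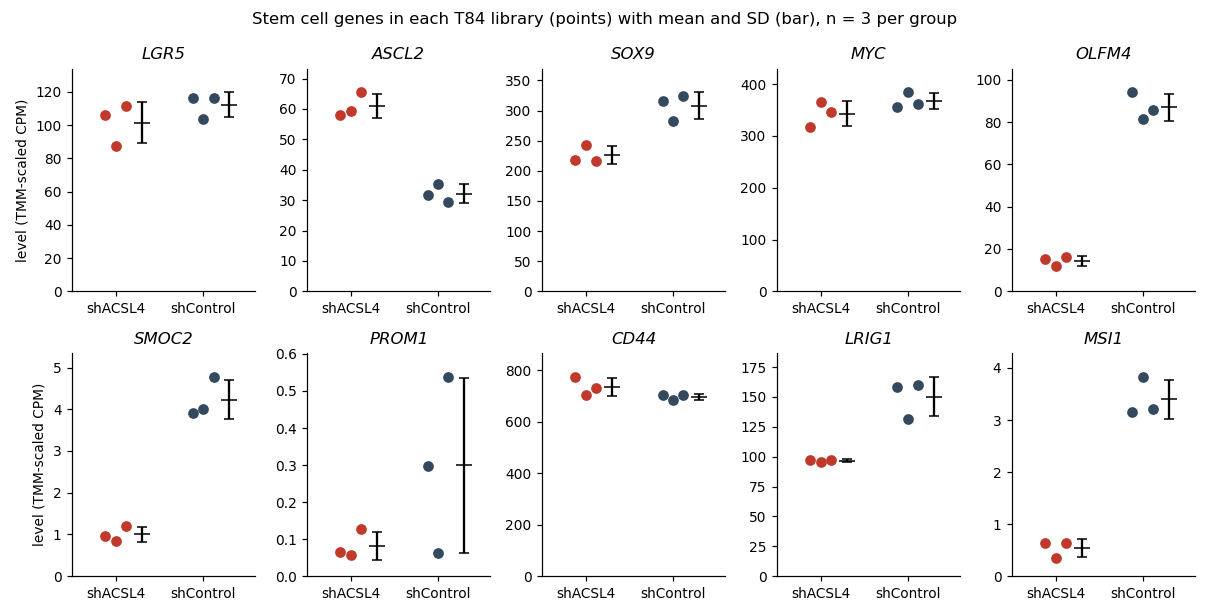
Level of each of the 10 stem cell genes in CPM scaled by TMM (vertical axes, linear from 0) in the 3 shACSL4 and 3 shControl libraries; points are libraries, and the bar beside them is the mean with its SD. OLFM4, SMOC2, MSI1, LRIG1 and SOX9 lie lower in all 3 shACSL4 libraries, ASCL2 lies higher in all 3, and the groups overlap for LGR5, CD44, MYC and PROM1.

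OLFM4 (ENSG00000102837, GRCh38 chromosome 13, 53028759 to 53052057, plus strand) encodes olfactomedin 4, a secreted glycoprotein that marks crypt-base cells in human intestine and is known as a target of Notch and NF-kB signalling. It had 15.4, 11.8 and 16.2 CPM in shACSL4 replicates 1, 2 and 3, against 94.0, 81.4 and 85.9 CPM in shControl replicates 1, 2 and 3. The highest shACSL4 library thus lay far below the lowest shControl library. OLFM4 fell 6.03-fold (log2 fold change -2.59, SE 0.12, 95% interval -2.84 to -2.35, adjusted p = 3.2e-11 in edgeR's quasi-likelihood test). By absolute log2 fold change it ranked 205 of the 15694 genes tested. The counts behind it were 208 to 257 in shACSL4 and 1280 to 1584 in shControl libraries, so counting error is small beside the difference.

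SMOC2 (ENSG00000112562, chromosome 6, 168441151 to 168673445, plus strand) encodes a secreted calcium-binding matrix protein of the SPARC family that is part of the crypt-base signature. It had 15, 15 and 19 counts in shACSL4 replicates 1, 2 and 3, against 66, 64 and 71 counts in shControl replicates 1, 2 and 3. Its level was 1.00 ± 0.177 CPM in shACSL4 and 4.23 ± 0.465 CPM in shControl cells (SD, n = 3 each), and the groups did not overlap. SMOC2 fell 4.20-fold (log2 fold change -2.07, SE 0.28, 95% interval -2.65 to -1.48, adjusted p = 1.3e-05 in edgeR's quasi-likelihood test). Its interval is wider than that of OLFM4 because fewer reads lie behind it. Its change was -0.71 in limma-trend on log2(FPKM + 1), where the added 1 shrinks low values.

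Among the members with an entry in the RefSeq promoter table (5 of 10), the bases before the first annotated GENCODE start are shown for the secreted pair and for LRIG1, the 3 of these 5 that fell. Coordinates are GRCh38.p14, each sequence reads 5′ to 3′ on the gene's own strand, and capitals mark GTGGGAA, the core site of the Notch effector RBPJ.
OLFM4, chr13:53028563-53028758, plus strand: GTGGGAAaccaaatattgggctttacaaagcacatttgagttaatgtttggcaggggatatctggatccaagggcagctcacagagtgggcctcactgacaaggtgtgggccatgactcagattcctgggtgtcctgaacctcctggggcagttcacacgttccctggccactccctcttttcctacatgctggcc
SMOC2, chr6:168440934-168441150, plus strand: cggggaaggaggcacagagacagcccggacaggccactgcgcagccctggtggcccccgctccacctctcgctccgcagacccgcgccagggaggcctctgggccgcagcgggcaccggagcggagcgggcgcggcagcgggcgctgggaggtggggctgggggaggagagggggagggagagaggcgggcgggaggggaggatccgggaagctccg
LRIG1, chr3:66501264-66501371, minus strand: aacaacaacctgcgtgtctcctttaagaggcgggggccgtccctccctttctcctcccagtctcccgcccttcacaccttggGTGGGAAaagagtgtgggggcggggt

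The OLFM4 and LRIG1 stretches each held GTGGGAA 1 time and the SMOC2 stretch did not hold it, on either strand. Members with an entry that did not fall were not searched, so a link between the site and a fall was not tested. Among 35116 RefSeq promoter windows cut to the same length and position, 4.32% held the site at the length of OLFM4 and 2.45% at that of LRIG1. The TCF/LEF core ATCAAAG and the E-boxes CAGCTG and CACGTG, which do not overlap the RBPJ site, were searched on both strands and were in none of the 3 stretches. ATCAAAG was held by 1.04% to 2.01% of the windows, CAGCTG by 5.9% to 12.2% and CACGTG by 2.04% to 5.34%. The bases before OLFM4 were 53.1% G or C, against 77.4% before SMOC2 and 62% before LRIG1.

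LGR5 (ENSG00000139292, chromosome 12, 71439770 to 71586310, plus strand) encodes the R-spondin receptor that defines cycling crypt-base stem cells in mouse. It had 106, 87.5 and 111 CPM in shACSL4 replicates 1, 2 and 3, against 116, 103 and 117 CPM in shControl replicates 1, 2 and 3. The groups overlapped, and only shACSL4 replicate 2 lay well below the shControl range. The log2 fold change was -0.14 (SE 0.10, 95% interval -0.35 to 0.06, adjusted p = 0.244 in edgeR's quasi-likelihood test). The interval leaves out a fall as large as that of LRIG1, OLFM4, SMOC2 or MSI1, but a small fall is not shown to be absent.

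LRIG1 (ENSG00000144749, chromosome 3, 66378797 to 66501263, minus strand) encodes a membrane protein that lowers signalling of the ERBB receptors and marks a partly quiescent stem cell population in mouse. It had 96.9, 95.3 and 97.5 CPM in shACSL4 replicates 1, 2 and 3, against 159, 131 and 160 CPM in shControl replicates 1, 2 and 3. The shACSL4 libraries were close to one another and all lower, with shControl replicate 2 nearest to them. LRIG1 fell 1.55-fold (log2 fold change -0.64, SE 0.09, adjusted p = 2.8e-05 in edgeR's quasi-likelihood test). Exons of SLC25A26, on the opposite strand, share 907 bases (12.9%) of the LRIG1 exons, and whether strand was used in counting is not given in the sources used here. SLC25A26 had 317 to 430 counts per library and a log2 fold change of 0.12 (adjusted p = 0.385 in edgeR's quasi-likelihood test).

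CD44 (ENSG00000026508, chromosome 11, 35138870 to 35232402, plus strand) encodes the main receptor for hyaluronan and is a Wnt target expressed along the lower crypt. It had 772, 703 and 731 CPM in shACSL4 replicates 1, 2 and 3, against 703, 684 and 703 CPM in shControl replicates 1, 2 and 3. The groups overlapped. Its log2 fold change was 0.08 (SE 0.09, 95% interval -0.11 to 0.26, adjusted p = 0.492 in edgeR's quasi-likelihood test), and with library size alone it was 0.20 (adjusted p = 0.0561 in the same test). The annotation holds 39 transcripts of CD44, 26 of them coding, and a count per gene does not show which of them was made.

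PROM1 (ENSG00000007062, chromosome 4, 15963076 to 16084378, minus strand) encodes prominin 1, the CD133 surface antigen of several stem cell types. It had 1, 1 and 2 counts in shACSL4 replicates 1, 2 and 3, against 5, 1 and 8 counts in shControl replicates 1, 2 and 3. The groups overlapped and the gene did not pass the filter on low counts, so a difference was not detectable at this depth. Without that filter its adjusted p was 0.319 in edgeR's quasi-likelihood test.

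ASCL2 (ENSG00000183734, chromosome 11, 2268495 to 2270952, minus strand) encodes a basic helix-loop-helix factor that, in mouse, sets crypt-base stem cell identity together with Wnt signalling. It had 58.0, 59.4 and 65.5 CPM in shACSL4 replicates 1, 2 and 3, against 31.6, 35.4 and 29.3 CPM in shControl replicates 1, 2 and 3. Every shACSL4 library was higher than every shControl library. ASCL2 was the 1 member that rose (log2 fold change 0.92, SE 0.10, 95% interval 0.72 to 1.13, adjusted p = 9.0e-07 in edgeR's quasi-likelihood test).

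SOX9 (ENSG00000125398, chromosome 17, 72121020 to 72126420, plus strand) encodes an HMG-box factor of crypt progenitors that Paneth cells need in mouse. It had 219, 243 and 217 CPM in shACSL4 replicates 1, 2 and 3, against 317, 283 and 324 CPM in shControl replicates 1, 2 and 3. The groups did not overlap, although shACSL4 replicate 2 and shControl replicate 2 came near each other. SOX9 fell 1.36-fold (log2 fold change -0.45, SE 0.09, adjusted p = 0.000646 in edgeR's quasi-likelihood test). The 50 nearest tested coding genes, 25 on each side, had a median log2 fold change of -0.30, with 20 of them lower and 7 higher. For the other 8 tested members the median of the neighbours (35 for SMOC2, 50 for the rest) lay between -0.16 and 0.20, and whether the neighbourhood has a part in the fall of SOX9 was not tested.

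MYC (ENSG00000136997, chromosome 8, 127735434 to 127741434, plus strand) encodes the growth-promoting transcription factor that Wnt signalling switches on in colorectal cancer. It had 317, 365 and 346 CPM in shACSL4 replicates 1, 2 and 3, against 356, 384 and 362 CPM in shControl replicates 1, 2 and 3. The groups overlapped. The log2 fold change was -0.10 (SE 0.09, 95% interval -0.29 to 0.09, adjusted p = 0.373 in edgeR's quasi-likelihood test), and it was 0.02 with library size alone.

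MSI1 (ENSG00000135097, chromosome 12, 120341330 to 120369180, minus strand) encodes the RNA-binding protein Musashi 1, which in mouse represses translation of the Notch inhibitor NUMB. It had 10, 6 and 10 counts in shACSL4 replicates 1, 2 and 3, against 53, 61 and 48 counts in shControl replicates 1, 2 and 3. Its shACSL4 libraries alone would not have passed the filter, which asks for about 10 counts in at least 3 libraries. MSI1 was thus tested through shControl, where it is high, so the direction of its call was set in part by the filter. The level was 0.537 ± 0.170 CPM in shACSL4 and 3.40 ± 0.369 CPM in shControl cells (SD, n = 3 each), and the groups did not overlap. MSI1 fell 6.30-fold (log2 fold change -2.66, SE 0.34, 95% interval -3.38 to -1.93, adjusted p = 9.2e-06 in edgeR's quasi-likelihood test), about as much as OLFM4 but with a wider interval. Its change was -0.84 in limma-trend on log2(FPKM + 1). NUMB itself stood at 124 CPM in shACSL4 and 134 CPM in shControl cells and did not pass the test (log2 fold change -0.11, adjusted p = 0.297 in edgeR's quasi-likelihood test). All of its shACSL4 libraries lay below the shControl range. An RNA level does not show translation, so repression of NUMB by MSI1 was not tested.

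**Figure D2:**
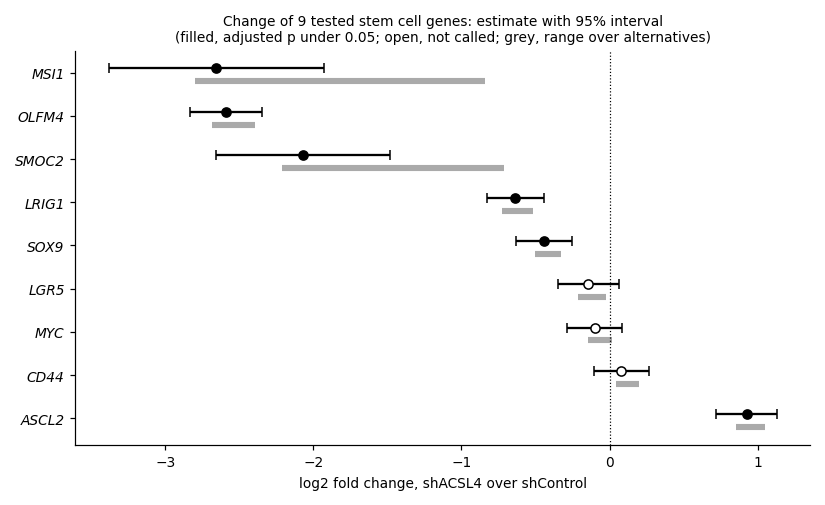
Log2 fold change of shACSL4 over shControl (horizontal axis) for the 9 stem cell genes tested, with 95% intervals from edgeR's fit; filled points passed an adjusted p under 0.05, and the grey bar spans the values under the other settings. MSI1, OLFM4 and SMOC2 lie beyond -2 and ASCL2 near 0.92, while LGR5, MYC and CD44 have intervals that include 0.

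Levels between genes were compared per length, in the FPKM that the authors deposited (fragments scaled to gene length and library size). In shACSL4 cells the order was MYC at 113 ± 8.21 FPKM, CD44 at 72.5 ± 3.24 FPKM, SOX9 at 56.7 ± 3.75 FPKM, ASCL2 at 32.5 ± 2.09 FPKM, LGR5 at 19.1 ± 2.29 FPKM, LRIG1 at 13.5 ± 0.131 FPKM and OLFM4 at 4.93 ± 0.781 FPKM (SD, n = 3 each). In shControl cells it was MYC at 122 ± 5.39 FPKM, SOX9 at 77.9 ± 5.21 FPKM, CD44 at 69.4 ± 0.887 FPKM, OLFM4 at 29.9 ± 2.23 FPKM, LGR5 at 21.3 ± 1.34 FPKM, LRIG1 at 21.2 ± 2.21 FPKM and ASCL2 at 17.3 ± 1.76 FPKM. OLFM4 was thus the seventh of the 10 genes in shACSL4 and the fourth in shControl cells, and ASCL2 was the fourth in shACSL4 and the seventh in shControl cells. SMOC2 and MSI1 were at 0.246 and 0.171 FPKM in shACSL4 and at 1.04 and 1.09 FPKM in shControl cells. No neighbours in the order overlapped in the shACSL4 libraries. In the shControl libraries, LGR5 overlapped with LRIG1, LRIG1 with ASCL2, and MSI1 with SMOC2. The 6 genes MYC, CD44, SOX9, ASCL2, LGR5 and LRIG1 were above 10 FPKM in both groups. Of all genes tested, 84.9% lay below LGR5 in the shACSL4 and 85.2% in the shControl libraries, while 51.9% lay below OLFM4 in shACSL4 and 90.2% in shControl libraries.

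**Figure D3:**
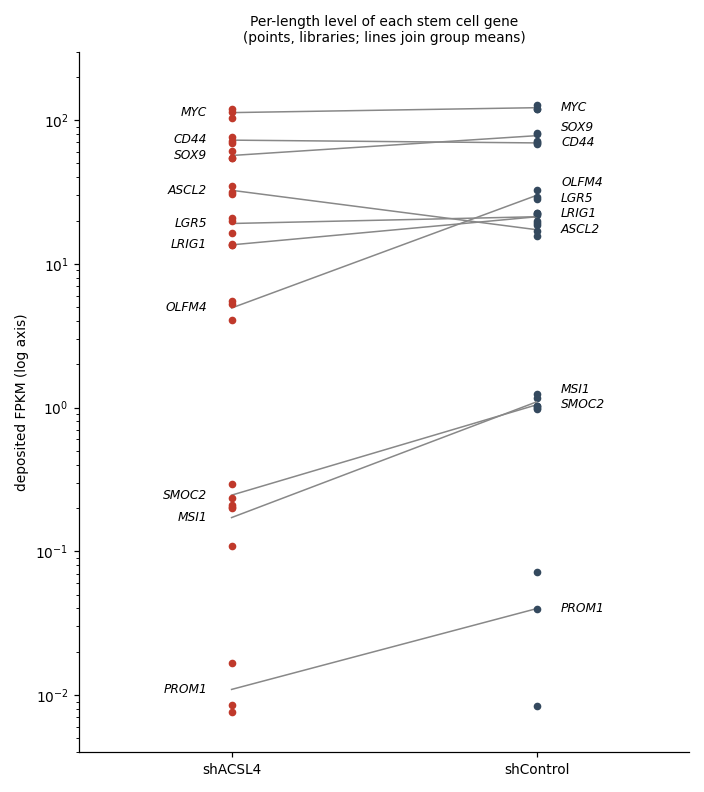
Deposited FPKM of each stem cell gene (vertical log axis) in the shACSL4 and shControl libraries; points are libraries, lines join the group means, and names are spaced apart where levels are close. The line of OLFM4 crosses those of LGR5, LRIG1 and ASCL2, the line of ASCL2 runs the other way, and MYC is at the top of both groups.

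A ratio of 2 genes within a library does not depend on how libraries are scaled, so each member was also set against LGR5. The FPKM of OLFM4 was 0.263, 0.245 and 0.264 times that of LGR5 in shACSL4 replicates 1, 2 and 3, against 1.46, 1.43 and 1.34 times in shControl replicates 1, 2 and 3. OLFM4 therefore exceeded LGR5 in no shACSL4 library and in every shControl library. The ratio of ASCL2 to LGR5 was 1.55, 1.92 and 1.67 in shACSL4, against 0.770, 0.970 and 0.713 in shControl replicates 1, 2 and 3. ASCL2 exceeded LGR5 in every shACSL4 library and in no shControl library. LRIG1 stood at 0.717 ± 0.0842 times LGR5 in shACSL4 and at 0.998 ± 0.0433 times in shControl cells (SD, n = 3 each), without overlap. The ratios of SMOC2 and MSI1 did not overlap either and were lower in shACSL4. The ratios of CD44, SOX9 and MYC overlapped between the groups, that of SOX9 because shACSL4 replicate 2 was at 3.70, inside the shControl range of 3.63 to 3.71, while the other two were at 2.76 and 2.60. No test was made on these ratios.

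**Figure D4:**
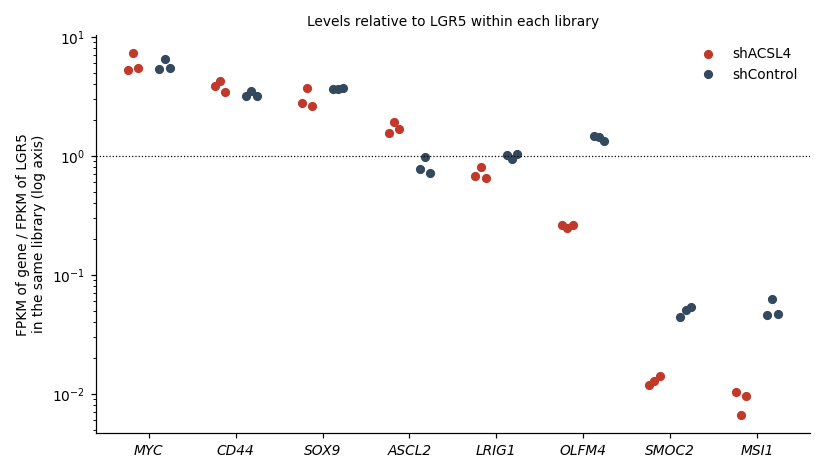
FPKM of 8 stem cell genes divided by the FPKM of LGR5 in the same library (vertical log axis), with shACSL4 libraries left of shControl libraries for each gene; each point is a library and the dotted line marks equal FPKM. OLFM4 drops below the line and ASCL2 rises above it in shACSL4 libraries, and MYC, CD44 and SOX9 overlap.

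The genes whose profile over the 6 libraries was most like that of OLFM4 were PCK1, WWTR1 and AKR1C2, with log2 fold changes of -2.51, -2.47 and -2.68. Their root mean square distances in centred log2 CPM were 0.12, 0.13 and 0.13, among 10922 coding genes that averaged 50 counts or more. For LGR5 they were GBA2, HOXA10 and REXO2, at 0.04, 0.05 and 0.05. With 2 groups of 3 libraries, such likeness mostly reflects the difference between the groups. AKR1C2 has near-identical relatives, so its reads may be split among them.

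Among paralogues of the 10 genes, 4 rose, 4 fell and 4 were not called of 12 tested. The shares over all genes tested were 24.0% higher and 23.1% lower. The paralogues of MSI1 and PROM1 fell: MSI2 stood at 141 ± 6.68 CPM in shACSL4 and 213 ± 13.1 CPM in shControl cells (log2 fold change -0.59, SE 0.09), and PROM2 at 8.19 ± 0.784 CPM in shACSL4 and 17.7 ± 2.14 CPM in shControl cells (-1.11, SE 0.14; SD, n = 3 for each level). The paralogues of LGR5, which also bind R-spondins, rose: LGR6 by 1.49 (SE 0.22), and LGR4 by 0.27 (SE 0.08), a call that was lost without shACSL4 replicate 1 or 2 (adjusted p = 0.060 and 0.0587 in edgeR's quasi-likelihood test). LGR6 changed by 0.85 in limma-trend on log2(FPKM + 1). SOX8 and OLFM2 fell (-1.03 and -1.31; -0.55 and -0.59 with limma-trend on log2(FPKM + 1)), and MYCN rose (0.83, and 0.52 with limma-trend on log2(FPKM + 1)). OLFML2B also rose, at 0.878 CPM in shACSL4 and 0.0418 CPM in shControl cells, a level below that of 3 counts. LRIG2 (0.11), LRIG3 (-0.19), MYCL (0.11) and ASCL5 (0.70) were not called. ASCL5 was called in 2 of 15 alternatives and LRIG3 in 1 of 16, and the groups of both did not overlap in CPM.

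Of 27 other genes of the crypt-base programme and Wnt feedback, 25 were tested, 11 fell and 6 rose, with a median of -0.31. The receptor phosphatase PTPRO fell most (log2 fold change -2.12, SE 0.13). RNF43, a ligase that removes Frizzled receptors, had 115 ± 3.65 CPM in shACSL4 and 208 ± 6.48 CPM in shControl cells (-0.86, SE 0.08; SD, n = 3 each). The BMP co-receptor RGMB changed by -0.82 (SE 0.10). EPHB3, a receptor that positions cells in the crypt, rose (1.69, SE 0.12), as did the Wnt inhibitor APC (1.32, SE 0.11) and the Polycomb factor BMI1 (0.69, SE 0.09). Among those not called were AXIN2 (0.17), ZNRF3 (0.03), NKD1 (-0.31), SP5 (-0.14), NOTUM (-0.75) and EPHB2 (0.18). Of 27 Wnt ligands and receptors 18 were tested, 8 fell and 2 rose. Beside this list and the one before, 23.1% of all genes tested fell and 24.0% rose. FZD7 (25.6 CPM in shACSL4 and 51.1 CPM in shControl cells) and LRP5 (log2 fold change -0.48) fell, and ROR1 rose by 2.70 (0.89 with limma-trend on log2(FPKM + 1)). The 8 became 4 with library size alone or without shACSL4 replicate 2, and 5 without shACSL4 replicate 3, and the 2 became 4 without shControl replicate 2 and 1 where genes had to average 50 counts or more. Of the R-spondins, the ligands of LGR receptors, RSPO2, RSPO3 and RSPO4 had no read in any library and RSPO1 had 2 counts over all 6.

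In the Notch list 10 of 27 tested genes fell and 3 rose (6 rose with library size alone; median -0.10). Over all genes tested 23.1% fell and 24.0% rose. Taking both directions together, Notch genes were called about as often as all genes (47.2%). The ligand DLL1 stood at 23.0 ± 4.29 CPM in shACSL4 and 3.92 ± 0.243 CPM in shControl cells (log2 fold change 2.55, SE 0.17; SD, n = 3 each). The receptor NOTCH3 (-1.17, SE 0.11) and RBPJ, whose core site is marked in the sequences above (-0.50, SE 0.09), fell. HES1, a direct Notch target, rose (0.57, SE 0.09). In the same list DTX1 fell (-2.63, SE 0.42, and -3.11 to -0.57 over the alternatives), from 2.80 CPM in shControl to 0.439 CPM in shACSL4 cells. HEY1 also fell (-1.58, SE 0.55), from 1.04 CPM in shControl to 0.335 CPM in shACSL4 cells, a call lost in 3 of 14 alternatives. What part Notch signalling had in the fall of OLFM4 was not tested. In the BMP list 11 of 20 tested genes rose and 4 fell, with a median of 0.34. The BMP targets ID2 (2.26, SE 0.12), ID1 (1.24, SE 0.10) and ID3 (0.85, SE 0.11) rose, and the ligand BMP4 fell (-0.95, SE 0.10). ID4 (-0.06) and SMAD7 (0.25) of the same list were not called. GREM1 rose (2.61, SE 0.29, and 0.32 to 2.73 over the alternatives), from 0.754 CPM in shControl to 4.65 CPM in shACSL4 cells. The 4 falls became 2 with library size alone, with either FPKM setting, and without shACSL4 replicate 2 or shControl replicate 1 or 3.

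The gene lists around single members were mixed, and 24.0% of all genes tested were higher and 23.1% lower. Of the MYC network, 11 genes were tested, with MXD4 higher (1.47, 0.93 with limma-trend on log2(FPKM + 1)) and MXI1 lower (-1.01). The 4 rises of that list became 1 without shACSL4 replicate 1 or 2, and 2 without shControl replicate 1, 2 or 3, with median-of-ratios scaling, with no filter or with FPKM, and its 2 falls became 1 without shACSL4 replicate 1 or 2 or shControl replicate 1 and with library size alone. Of 30 MYC target genes 8 rose, 6 fell and 16 were not called, with a median of 0.02, and LDHA (-1.02) and HSPE1 (-0.91) fell while BOP1 rose (0.74). Taking both directions together, these 30 were called about as often as all genes (47.2%). The 8 became 5 without shACSL4 replicate 2 and 4 without shControl replicate 3. Among ligands and linkers of CD44, CEMIP, a hyaluronan-degrading protein, fell (-0.81) and the cytoskeletal linker ANK3 rose (0.91, 0.42 with limma-trend on log2(FPKM + 1)). In all 6 of 13 fell there and 2 rose, and the 6 became 3 without shACSL4 replicate 1 and 2 without shControl replicate 1 or with library size alone. Among 10 splicing factors that act on CD44 exons, SRSF3 (0.51), SRSF1 (0.35) and ESRP2 (0.35) rose (5 rose with library size alone). The 1 fall, SRRM1 (-0.26), was lost with library size alone and without shACSL4 replicate 1 or 3 or shControl replicate 1 or 3 (adjusted p = 0.0575 to 0.179 in edgeR's quasi-likelihood test). Of the receptor kinases that LRIG1 binds, EGFR stood at 185 ± 23.0 CPM in shACSL4 and 112 ± 17.8 CPM in shControl cells (0.73, SE 0.12; SD, n = 3 each). ERBB2 was also called (0.23), a call lost without shACSL4 replicate 1 or 2, without shControl replicate 1 or 3 and with no filter (adjusted p = 0.0546 to 0.117 in edgeR's quasi-likelihood test). ERBB3 (0.05) and MET (-0.09) were not called.

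**Figure D5:**
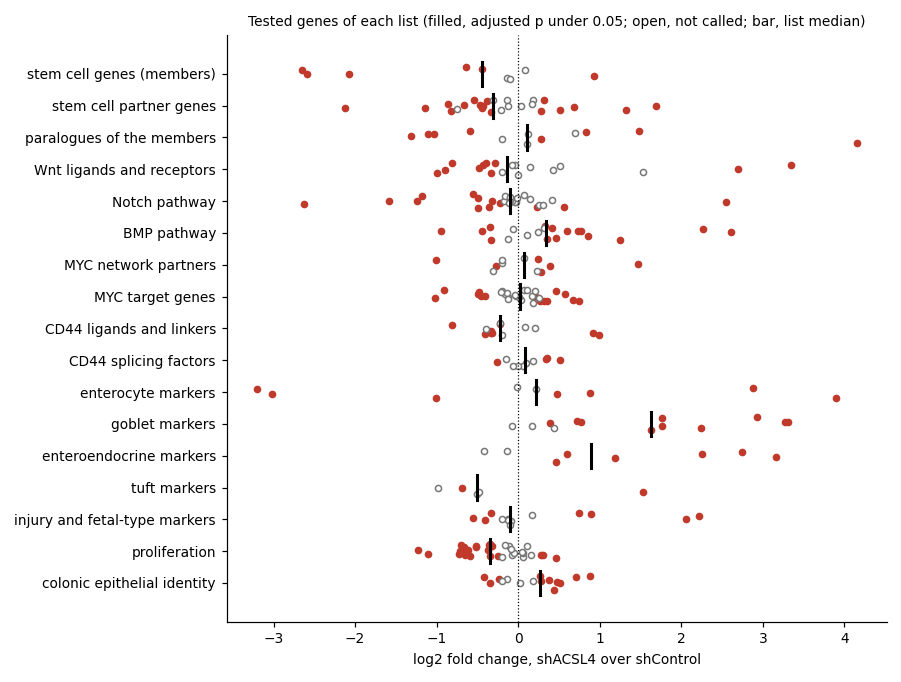
Log2 fold change of shACSL4 over shControl (horizontal axis) for the tested genes of the 10 members and of each list with at least 5 tested genes; filled points passed an adjusted p under 0.05 in edgeR's test and bars are list medians. The stem cell genes spread from -2.66 to 0.92, and the goblet and enteroendocrine lists have medians of 1.63 and 0.89.

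Markers of differentiated intestinal cells moved in the same libraries, where 24.0% of all genes tested rose and 23.1% fell. Of 13 goblet genes tested, 10 rose and none fell, with a median of 1.63, and their summed level was 934 to 1124 CPM in shACSL4 and 340 to 358 CPM in shControl libraries. REG4 (log2 fold change 2.93), FCGBP (3.27) and ATOH1 (3.31), the factor that starts secretory fate, led that list. All 14 goblet markers had reads. Of 8 enteroendocrine genes tested 6 rose and none fell, with INSM1 (2.25), NEUROG3 (3.16) and SCG3 (2.74) among them and a sum of 63.5 to 71.0 CPM in shACSL4 and 33.1 to 35.4 CPM in shControl libraries, and SST and CCK had no read. In limma-trend on log2(FPKM + 1), NEUROG3 changed by 1.94 and SCG3 by 0.36. SCG3 stood at 0.172 CPM in shControl cells, below the level of 3 counts in those libraries. NEUROD1, PYY and GCG had 1, 6 and 18 counts over all 6 libraries and were not tested. Enterocyte genes went both ways, with 4 higher and 3 lower of 9 tested and sums of 972 to 1010 CPM in shACSL4 and 973 to 1118 CPM in shControl libraries. FABP1 (-3.02) and CA2 (-1.01) fell, ANPEP rose (2.88; 1.59 with limma-trend on log2(FPKM + 1)), and APOA4 and CA4 had no read.

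Of 4 Paneth cell genes tested, LYZ fell (-2.22, SE 0.20) and DEFA6 rose (1.33), a call lost with DESeq2 (adjusted p = 0.0539) and, in edgeR's quasi-likelihood test, without shACSL4 replicate 1 or 3 or shControl replicate 1 or 2 (adjusted p = 0.0644 to 0.118). Of 5 tuft cell genes, IL17RB fell (-0.69) and AVIL rose (1.53; 0.56 with limma-trend on log2(FPKM + 1)), and 2 fell without shACSL4 replicate 1. Paneth sums were 78.5 to 101 CPM in shACSL4 and 86.8 to 99.1 CPM in shControl libraries, with PRSS2 at 0. Most of these sums was MMP7, not called, at 81.0 CPM in shACSL4 and 70.3 CPM in shControl cells. Tuft sums were 59.7 to 78.1 CPM in shACSL4 and 92.3 to 112 CPM in shControl libraries, with SH2D7 at 0. Most of these sums was IL17RB alone, at 57.6 CPM in shACSL4 and 92.6 CPM in shControl cells. Among injury and fetal-type genes TRNP1 (2.05) and AREG (0.74) rose and CLU (-0.55) fell, in all 4 higher and 3 lower (1 lower without shACSL4 replicate 1) of 13. Their sums were 1121 to 1318 CPM in shACSL4 and 1143 to 1176 CPM in shControl libraries. Beside the Paneth, tuft and injury lists, 24.0% of all genes tested were higher and 23.1% lower.

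Proliferation genes also moved, with 19 of 33 lower and 3 higher and a median of -0.34. Over all genes tested 23.1% were lower and 24.0% higher. CDC20 (-1.22) and KIF20A (-1.10) had the largest falls among the 33, and the list summed to 4394 to 4995 CPM in shACSL4 and 5058 to 5357 CPM in shControl libraries. The 3 rises were MKI67 (0.47), FOXM1 (0.31) and KIF11 (0.28). They became 1 with either FPKM setting and without shACSL4 replicate 1 or 2. The 11 genes not called included PCNA (-0.11) and MCM2 (0.06). Markers of cells from outside the epithelium were low. Fibroblast genes summed to 2.40 to 2.75 CPM in shACSL4 and 2.26 to 4.36 CPM in shControl libraries, with PDGFRA and THY1 at 0. COL1A1, 1 of 2 tested there, fell (-1.49), a call lost without shACSL4 replicate 2 or shControl replicate 3 (adjusted p = 0.0534 and 0.0504 in edgeR's quasi-likelihood test) and in limma-trend on log2(FPKM + 1). Endothelial genes summed to 0.896 to 1.14 CPM in shACSL4 and 0.939 to 1.31 CPM in shControl libraries, with KDR at 0 and none passing the filter. The leukocyte list, which also holds LYZ, summed to 9.04 to 11.8 CPM in shACSL4 and 24.99 to 38.9 CPM in shControl libraries, with 3 of 4 tested genes lower. LYZ, also in the Paneth list, is 1 of these 3. Most of the shControl sums was LYZ, at 20.8 CPM in shControl and 4.47 CPM in shACSL4 cells. The pan-leukocyte gene PTPRC had 30 counts over all 6 libraries and CD3E had none. What part the shifts in goblet, enteroendocrine, proliferation or leukocyte genes had in the changes of OLFM4, SMOC2, MSI1, LRIG1, SOX9 and ASCL2 was not tested.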

How the data were processed

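RNA was measured in 3 shACSL4 and 3 shControl libraries of T84 cells, after removal of ribosomal RNA, per the labels' protocols. CASAVA, HISAT2 and GRCh38 (hg38) are named in the submitters' processing notes; the counting tool is not given in the sources used here. The authors deposited raw read counts per gene. They also deposited FPKM per library, with gene lengths that equal the summed exon bases of GENCODE 29 for all 10 members. The deposited group mean signal, log2 fold changes and p-values of the authors were not used in the results. Control columns named NC were taken as shControl, the only other group, and matched by number.

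Counts were tested with edgeR 4.0.16 (quasi-likelihood, filterByExpr, TMM; limma 3.58.1, R 4.3.3), shACSL4 over shControl, without covariates. A gene near the limit of detection in 1 group passes filterByExpr only through the group where it is high. Benjamini-Hochberg adjustment ran over all 15694 genes tested, and genes were called at an adjusted p under 0.05. CPM uses TMM-scaled library sizes. The test was tried on simulated counts before use. There it missed most of the smallest changes, and its share of false calls exceeded the level set for calls. Alternatives were DESeq2 1.42.0, other scalings and filters, limma-voom, limma-trend on log2 FPKM with 1 or 0.1 added, a replicate block, coding genes alone and leaving out each library.

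The members and the 21 gene lists (358 entries, all matched, 2 through a newer symbol) were chosen with earlier results of these data known. From each list, the called genes of smallest adjusted p (3 at most) and all tested paralogues were to be named. For OLFM4 and LGR5, the 3 nearest coding profiles were to be named as well. BMI1, RNF43, RGMB, RBPJ, HES1, ID3, NUMB, SRRM1, ERBB3, MET, RSPO1, PTPRC and the genes listed at 0 were chosen after their values were seen. So were AXIN2, ZNRF3, NKD1, SP5, NOTUM, EPHB2, DTX1, HEY1, ID4, SMAD7, GREM1, MMP7, MKI67, FOXM1, KIF11, PCNA, MCM2, NEUROD1, PYY and GCG. Not all genes of the rule are printed.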

Additional observations from a re-analysis of the deposited data

How the results depend on the processing

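OLFM4, SMOC2, MSI1, LRIG1 and SOX9 stayed lower and ASCL2 higher, with an adjusted p under 0.05, in all alternatives that tested them (16, or 15 for SMOC2 and MSI1). Requiring a mean of at least 50 counts removed SMOC2 and MSI1, so that 3 members were called lower there. OLFM4 ranged from -2.68 to -2.39, LRIG1 from -0.73 to -0.52, SOX9 from -0.51 to -0.33 and ASCL2 from 0.85 to 1.05. LGR5 (-0.21 to -0.02) and CD44 (0.04 to 0.20) were not called in any of the 16. MYC was not called either, and it turned to 0.019 with library size alone, where the median over all genes stood at 0.13. Its paralogue MYCL, not called, was at -0.0039 without shControl replicate 3. Over all genes, between 6122 and 7459 were called in the alternatives, against 7400.

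Deviations of same-numbered libraries correlated at 0.06, -0.0013 and 0.0075, which gave no sign of pairing by replicate number. Differently numbered libraries were not compared, so whether libraries shared a batch was not tested. With the number as a block 7414 genes were called, and the same 6 members with the same signs. Depth limits PROM1, which no setting with a filter tested, and widens the intervals of SMOC2 and MSI1. With 3 libraries a group, no library could be tested as an outlier. Leaving out shControl replicate 2 or shACSL4 replicate 3 kept 7251 and 7061 calls over all genes. Leaving out any other single library kept 6122 to 6661.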
